A study of Homo sapiens with 6 samples.

Results

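The libraries labelled TIMM13 siRNA 2 were compared with those labelled control siRNA, which took in 4 of the 6 libraries of the series, 2 in each group. All came from A549, an epithelial-like line of human lung adenocarcinoma, and were made by poly(A) selection and dUTP strand marking of total RNA. The labels give the control cells the genotype WT and the siRNA 2 cells TIMM13 knockdown, and write "cell differentiation" as the treatment of all of them, without saying more. The study set out to ask how TIMM13 acts on cell proliferation. The libraries labelled TIMM13 siRNA 1 entered only the estimate of the spread, and no library was dropped or filled in. Of 19990 genes in the deposited table, 11209 reached 1 in at least 2 of the 4 libraries and were tested. Nothing in the labels says that replicates came from separate cultures, and the p-values reflect the spread of these libraries alone, which may be technical.

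The TIMM13 protein works between the outer and inner membranes of mitochondria. With its partner TIMM8A it forms a small chaperone that shields hydrophobic membrane proteins on their way from the outer-membrane pore to the inner-membrane insertion machinery. An siRNA is a short double-stranded RNA that guides the RNA interference machinery to cut a matching mRNA, and 2 different siRNAs against the same mRNA need not share the other mRNAs they touch. A change in the libraries of 1 siRNA can therefore belong to the target or to that RNA alone, which these libraries cannot tell apart.

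TIMM13 itself was not detectably lower. Its value, like all below the authors' normalised signal per gene in an unstated unit and given for replicates 1 and 2 in that order, was 2.09 and 2.56 in the control libraries and 1.82 and 2.31 in the siRNA 2 libraries, so the groups overlapped. The log2 change was −0.12 (SE 0.17, limma adjusted p = 0.664). On GRCh38 the gene (ENSG00000099800) spans 2425624 to 2427894 of chromosome 19 on the minus strand. Every direction below is therefore that of libraries carrying the siRNA 2 label, whose TIMM13 mRNA was not shown to be reduced. Its partner TIMM8A stood at 2.50 and 2.77 in control and 4.83 and 6.73 in siRNA 2 (limma adjusted p = 0.185), and TIMM9, of the related small TIM chaperone pair with TIMM10, at 18.7 and 18.8 against 6.20 and 11.6 (adjusted p = 0.126). The 8 small TIM and TIM22 genes tested besides TIMM13 had 0 calls, against 3.44% of all tested genes, and a median log2 change of 0.35.

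The cells read as A549 in all 4 libraries. The 16 epithelial and A549 markers all had a value of at least 1 in every library. Of 19 leukocyte, fibroblast and endothelial markers, 17 were under 1 in all 4, with CD3D, CD3E, MS4A1, CDH5 and KDR listed at 0. The others were CD14, at 4.09 and 4.47 in control and 6.99 and 6.44 in siRNA 2, and COL1A1. COL1A1 was 0.757 and 0.795 in control and 2.58 and 4.24 in siRNA 2. All 19 summed to 5.44 and 5.89 in control and 10.2 and 12.2 in siRNA 2. Of 18 alveolar and airway markers, 13 were under 1 in all 4, with SFTPA1, NKX2-1, SCGB1A1, SCGB3A1 and KRT5 listed at 0. All 18 summed to 22.0 to 29.5. Those present included ABCA3 (3.30 and 2.41 in control, 1.89 and 2.47 in siRNA 2) and MUC5AC (2.22 and 1.69, 3.05 and 2.42). The 5 haemoglobin and platelet markers summed to at most 0.809. The 13 mRNAs of mitochondrial DNA were listed at 0 throughout, so a 0 in this table need not mean that a gene was silent. The values are not counts and the read depth is unknown, so no counting interval can be given. Their column totals were 209245 and 209559 in control, and 205986 and 299936 in siRNA 2.

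The siRNA 2 replicates differed from each other more than the controls did. Of the tested genes, 19.4% were at least 2-fold apart between the siRNA 2 libraries and 7.99% between the controls, on the log2(value + 1) scale used throughout. In siRNA 2 replicate 1, 833 genes (7.43%) were at least 2-fold above the control mean and 826 (7.37%) at least 2-fold below. In replicate 2 these counts were 2540 (22.7%) and 911 (8.13%). The replicates lay on opposite sides of the control mean for 3228 genes, and for 142 of them (1.27%) both were 2-fold away. Of those 142, 135 were low in replicate 1 and high in replicate 2. The genes called below all moved the same way in both. List medians take in every tested member, and some genes whose replicates disagreed are described as such.

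Called genes were those with a Benjamini-Hochberg adjusted p under 0.05 in limma over all 11209 genes. There were 386 (3.44%), 155 higher (1.38%) and 231 lower (2.06%) in siRNA 2. Of the higher calls, 33 passed the filter on low values through the siRNA 2 libraries alone, and 51 of the lower calls through the controls alone, so these genes had to differ to be tested. Where such a gene is named below, with both values of 1 group under 1, its values are given as a description and its p is left out. All calls had both siRNA 2 libraries on the same side of the control mean, and 365 changed by 2-fold or more. Without any test, 262 genes (2.34%) were at least 2-fold above both controls in each siRNA 2 library, and 289 (2.58%) at least 2-fold below. The smallest adjusted p was 0.0111. The fit took the spread as equal in all groups, though the siRNA 2 replicates differed more than the controls. With library weights, under which noisier libraries count less, limma called 7 higher and 4 lower. limma called 0 genes when only the 4 compared libraries were fitted (2101 at unadjusted p under 0.05), without control replicate 1 (1617), without control replicate 2 (1554), or without siRNA 1 replicate 1 (2091) or replicate 2 (2094). With siRNA 2 replicate 1 left out it called 2706 higher and 1940 lower, and with replicate 2 left out 806 and 971. With the libraries scaled to equal totals it called 9 higher and 11 lower, with equal upper quartiles 49 and 67, and with quantile normalization 66 and 111. Of 74 named calls, 58, 30 and 28 were lost under these scalings in that order, which is said below for some genes only.

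**Figure D1:**
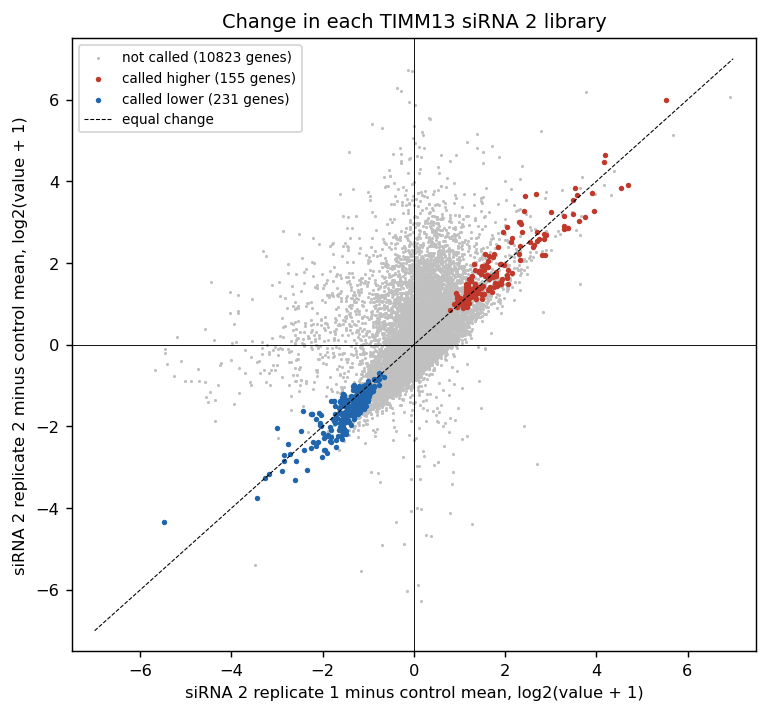
Change of each of the 11209 tested genes against the control mean, in siRNA 2 replicate 1 (x axis) and replicate 2 (y axis), both on the log2(value + 1) scale, with 1 point a gene. The 155 genes called higher and the 231 called lower lie near the line of equal change. A wide gap between replicates works against a call, so this nearness is no separate result. The grey points reach further up than down, with 2540 genes at least 2-fold up in replicate 2 and 833 in replicate 1.

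The immediate early genes had the lowest median change of the gene lists, apart from 1 list added later. These encode transcription factors and feedback regulators whose mRNAs appear within minutes of a growth factor or stress signal and are short-lived. The deposited values covered 23 of them, of which 22 were tested. limma called 0 higher and 4 lower (FOSL1, EGR1, EGR2 and JUNB), against 1.38% and 2.06% of all tested genes. EGR2 was in the test through its control values alone. In 16 of 22 both siRNA 2 libraries lay below both controls, against 25.9% of all tested genes. The median log2 change was −1.11, and −0.87 and −1.20 in replicates 1 and 2, where all tested genes had 0.14, 0.07 and 0.18. The list's genes have a median of 2.5 annotated transcripts, and genes with few transcripts read lower in replicate 2, as given below.

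FOSL1, a partner of JUN in the AP-1 transcription factor, was 26.3 and 26.7 in control and 4.72 and 3.76 in siRNA 2, a log2 change of −2.40 (SE 0.18, limma adjusted p = 0.0219). EGR1, a zinc-finger factor induced by growth factors, was 347 in both controls and 91.4 and 54.6 in siRNA 2, a log2 change of −2.28 (SE 0.29, adjusted p = 0.0384). In both genes the groups stood well apart. EGR2, a relative of EGR1, had 3.67 and 3.27 in control and 0.0678 and 0.187 in siRNA 2. JUNB, another AP-1 subunit, fell from 256 and 252 to 84.3 and 50.4 (log2 change −1.95, SE 0.28, limma adjusted p = 0.0475). EGR1 and JUNB each have 1 annotated transcript, a class whose median change was 0.09 in replicate 1 and −0.47 in replicate 2. Under the 3 other scalings the calls of EGR1 and JUNB were lost (limma adjusted p from 0.0653 to 0.105), and FOSL1 was lost with equal totals only.

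Several members named after their values were seen lay below both controls in both libraries without a call. MYC, the growth-promoting factor, was 180 and 186 in control and 52.2 and 38.5 in siRNA 2 (limma adjusted p = 0.105). FOS was 221 and 178 against 15.8 and 100 (adjusted p = 0.220), so its replicates differed widely. EGR3 was not tested, because it was under 1 in all 4 libraries, at 0.624 and 0.638 in control and 0.0535 and 0.0641 in siRNA 2. Not every immediate early gene was low. JUN, with 67.0 and 65.1 in control and 83.4 and 43.4 in siRNA 2, and JUND and KLF6 had 1 siRNA 2 library above both controls and the other below.

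A list of outputs of the MAP kinase pathway was added after these values were seen. Of 10 genes 9 were tested, with 0 called higher and 2 lower, against 1.38% and 2.06% of all tested genes. The median log2 change was −1.17. PHLDA1 fell from 68.3 and 68.9 to 22.4 and 14.1 (limma adjusted p = 0.0411). ETV4, an ETS-family transcription factor, fell from 29.6 and 30.3 to 9.34 and 10.2 (adjusted p = 0.0360). CCND1, which encodes cyclin D1, was 185 and 184 in control and 88.5 and 55.1 in siRNA 2 (adjusted p = 0.0682). SPRY2, a feedback inhibitor of receptor signalling, did not separate, at 9.93 and 7.33 against 10.1 and 6.77.

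**Figure D2:**
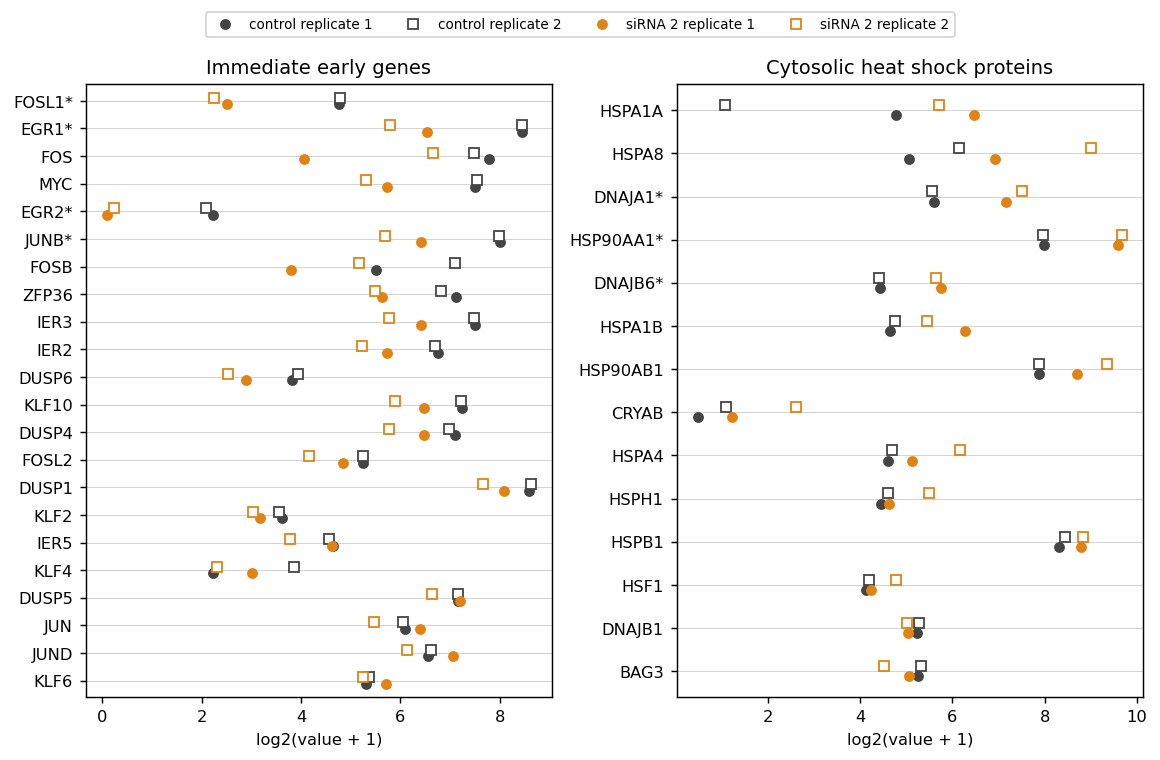
Value of every tested immediate early gene (22) and cytosolic heat shock gene (14) in the control libraries (dark) and siRNA 2 libraries (orange), as log2(value + 1), replicate 1 as filled circles and replicate 2 as open squares; an asterisk marks a gene called by limma. In 16 of the 22 immediate early genes both orange points lie left of both dark ones, and in 12 of the 14 heat shock genes both lie right of them.

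The cytosolic heat shock genes moved the other way. They encode chaperones that hold and refold other proteins, and many are driven by the heat shock factor HSF1. All 14 were tested, and 3 were called higher and 0 lower, against 1.38% and 2.06% of all tested genes. In 12 both siRNA 2 libraries lay above both controls, against 33.7% of all tested genes. The median log2 change was 1.15, with 0.65 in replicate 1 and 1.34 in replicate 2. HSP90AA1, the inducible HSP90, was 251 in both controls and 769 and 817 in siRNA 2, a log2 change of 1.66 (SE 0.16, limma adjusted p = 0.0326). DNAJA1, a J-domain partner of HSP70, rose from 47.1 and 46.2 to 142 and 182 (log2 change 1.76, SE 0.19, adjusted p = 0.0371). DNAJB6, another J-domain protein, rose from 20.5 and 20.3 to 53.1 and 48.6 (log2 change 1.28, SE 0.15, adjusted p = 0.0378). Under the 3 other scalings all 3 calls were lost (limma adjusted p from 0.0528 to 0.162). The other members were less even. HSP90AB1, the constitutive HSP90, was 234 in both controls and 417 and 650 in siRNA 2 (adjusted p = 0.0857). The inducible HSP70 genes HSPA1A and HSPA1B, near-identical copies whose reads may be split and which were named after their values were seen, stood at 26.3 and 1.09 against 87.4 and 51.6, and at 24.0 and 26.0 against 76.4 and 42.8. DNAJB1 and BAG3, both classical heat shock genes, lay below both controls, DNAJB1 at 36.6 and 37.5 against 31.6 and 31.2.

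The integrated stress response showed 4 falls and 0 rises among 39 tested genes of 41, against 2.06% and 1.38% of all tested genes. This pathway slows translation and raises the factor ATF4, which switches on amino acid and redox genes. CHAC1, an ATF4 target that degrades glutathione, fell from 24.2 and 20.1 to 2.18 and 2.53, a log2 change of −2.78 (SE 0.31, limma adjusted p = 0.0371). TRIB3, a pseudokinase, fell from 53.8 and 51.2 to 19.5 and 12.8 (log2 change −1.67, SE 0.24, adjusted p = 0.0475). SESN2, a leucine sensor, fell from 6.95 and 7.73 to 2.37 and 1.62 (adjusted p = 0.0498), and GDF15, a secreted stress cytokine, from 195 and 145 to 40.1 and 41.4 (adjusted p = 0.0378). In each of these genes the lower control was more than 2-fold above the higher siRNA 2 library. Over the whole list the median was −0.17, with −0.41 in replicate 1 and −0.19 in replicate 2. Both siRNA 2 libraries lay below both controls in 19 genes and above both in 5, against 25.9% and 33.7% of all tested genes. ATF4 mRNA, named after its values were seen, was 124 and 145 in control and 117 and 147 in siRNA 2, and DDIT3, which encodes the stress factor CHOP, was 4.52 and 15.5 against 10.5 and 10.2.

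Genes of mitosis were lower in replicate 1 and less so in replicate 2. Of 65 tested genes of 67, 0 were called higher and 3 lower, against 1.38% and 2.06% of all tested genes. The median change was −0.39 (−0.65 and −0.23 in replicates 1 and 2). In 32 both siRNA 2 libraries lay below both controls, against 25.9% of all tested genes. TOP2A, the topoisomerase that untangles chromosomes, fell from 55.9 and 54.5 to 11 and 16.4 (log2 change −1.96, SE 0.23, limma adjusted p = 0.0378). KIF18B, a microtubule-depolymerising kinesin, fell from 16.4 and 15.3 to 3.57 and 2.66 (log2 change −2.04, SE 0.19, adjusted p = 0.0316). CKAP2L, a spindle protein, fell from 9.97 and 8.24 to 2.40 and 1.81 (adjusted p = 0.0397). MYBL2, which drives G2/M genes, had 9.03 and 9.62 against 2.36 and 3.58 and an adjusted p of 0.0503. The proliferation marker MKI67, named after its values were seen, was 22.0 and 18.7 in control and 9.02 and 5.48 in siRNA 2 (limma adjusted p = 0.0766). For CCNB1 and AURKA, named likewise, the groups overlapped, with CCNB1 at 33.7 and 36.9 against 26.3 and 52.0.

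The 52 tested DNA replication and G1/S genes had a median change of −0.06. E2F2, a transcription factor of S-phase entry, had 2.66 and 3.15 in control and 0.929 and 0.491 in siRNA 2. CDKN1A, the gene of the cyclin-dependent kinase inhibitor p21, rose from 17.6 and 21.2 to 83.3 and 55.9 (log2 change 1.77, SE 0.27, limma adjusted p = 0.0498). Both siRNA 2 libraries were at least 2-fold above both controls, but its adjusted p stood at the threshold and its call was lost under each of the other scalings. CDKN1A was the only one of 25 tested p53 targets called higher, against 1.38% of all tested genes. GDF15 and SESN2, counted above, were called lower in that list, against 2.06% of all tested genes. The median of the list was −0.17. Among 12 BCL2-family genes, BMF, a BH3-only member that promotes cell death, was called lower, from 5.67 and 5.83 to 1.89 and 1.10 (adjusted p = 0.0424). BMF was the only call of that list, against 3.44% of all tested genes. In bulk RNA, fewer cells in a phase and less RNA in each cell cannot be told apart.

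The promoters of 13 of the 14 called members of these 4 lists were in the RefSeq table. FOSL1 was the other. The windows are the 250 bases before the gene start on GRCh38.p14, printed 5′ to 3′ on the gene's strand, and 1 from each list is shown, since the lists moved in different directions. EGR1 lies at chr5:138465229-138465478, plus strand, and capitals mark its CArG boxes, the element bound by serum response factor, at −105 and −83 from the start. CHAC1 lies at chr15:40953221-40953470, plus strand, and capitals mark TGATGNAA, the composite C/EBP and ATF element, read here on the other strand, and CCAAT. CKAP2L lies at chr2:112764610-112764859, minus strand, with CCAAT and the CHR-like TTTGAA in capitals. DNAJA1 lies at chr9:33025023-33025272, plus strand, with the heat shock element core GAANNTTC in capitals.
EGR1: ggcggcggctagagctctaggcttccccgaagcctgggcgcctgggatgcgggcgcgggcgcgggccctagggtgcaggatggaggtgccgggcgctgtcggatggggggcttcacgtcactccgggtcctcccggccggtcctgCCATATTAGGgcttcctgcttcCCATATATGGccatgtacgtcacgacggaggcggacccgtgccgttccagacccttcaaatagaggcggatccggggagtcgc
CHAC1: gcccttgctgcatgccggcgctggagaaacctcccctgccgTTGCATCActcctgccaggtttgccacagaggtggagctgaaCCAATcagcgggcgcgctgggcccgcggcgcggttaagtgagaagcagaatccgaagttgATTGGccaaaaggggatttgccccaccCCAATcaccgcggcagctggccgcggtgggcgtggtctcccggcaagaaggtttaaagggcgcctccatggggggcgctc
CKAP2L: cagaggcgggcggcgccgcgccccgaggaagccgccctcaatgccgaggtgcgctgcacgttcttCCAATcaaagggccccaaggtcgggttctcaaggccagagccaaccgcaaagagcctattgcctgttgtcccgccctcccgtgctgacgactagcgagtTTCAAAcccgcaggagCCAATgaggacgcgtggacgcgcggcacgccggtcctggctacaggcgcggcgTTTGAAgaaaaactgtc
DNAJA1: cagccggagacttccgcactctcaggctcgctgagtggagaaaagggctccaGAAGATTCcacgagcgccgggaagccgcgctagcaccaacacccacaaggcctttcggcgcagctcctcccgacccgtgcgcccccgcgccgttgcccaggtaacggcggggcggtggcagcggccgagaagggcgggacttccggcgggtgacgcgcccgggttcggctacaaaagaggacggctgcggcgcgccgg
A CArG box was in 1 of 3 promoters of called immediate early genes and in 1.16% of all 35116 promoters in the table. TGATGNAA was in 1 of 4 of the integrated stress response, CHAC1, against 3.14% of all. CCAAT was in all 3 of the mitotic genes, TOP2A, KIF18B and CKAP2L, against 32.0%, and TTTGAA was in 2 of 3, against 13.3%. TTTAAA, the other CHR-like form, was in CHAC1 only among these, against 11.3%, and neither it nor the TTTGAA of EGR1 is in capitals. GAANNTTC was in 2 of 3 heat shock genes, DNAJA1 and DNAJB6, against 5.78%. Among the 9102 promoters of tested genes the shares were 0.945% for the CArG box, 1.21% for TGATGNAA, 35.6% for CCAAT, 7.97% for TTTGAA, 6.74% for TTTAAA and 3.86% for GAANNTTC. Both strands were read, motifs may overlap, and a match describes these letters only. The CArG and GAANNTTC searches were added after the values were seen.

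Iron and redox genes held some of the most abundant mRNAs that fell. FTL, the ferritin light chain that stores iron, has 1 annotated transcript and was 5456 and 5120 in control and 1293 and 1616 in siRNA 2, a log2 change of −1.87 (SE 0.20, limma adjusted p = 0.0360). FTH1, the heavy chain, was named after its values were seen and stood at 2372 and 2420 against 969 and 1222. HMOX1, which breaks haem down and releases its iron, fell from 465 and 488 to 162 and 207 (log2 change −1.38, SE 0.20, adjusted p = 0.0465). CBR1, a carbonyl reductase that passed the filter through siRNA 2 alone, had 0.206 and 0.0593 in control and 51.0 and 71.1 in siRNA 2. Of 36 tested NRF2 targets and iron genes, FTL, HMOX1 and CBR1 were the calls, against 3.44% of all tested genes. The median was 0.02, which turned negative under each of 3 other scalings (−0.24 to −0.20).

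Among lipid genes, SCD, which makes monounsaturated fatty acids, fell from 1056 and 1010 to 367 and 227 (log2 change −1.84, SE 0.28, limma adjusted p = 0.0493). Its call was lost under each of the other scalings. The 31 tested cholesterol and fatty acid genes had 0 called higher and 2 lower, against 1.38% and 2.06% of all tested genes. Their median change was 0.42. HK1, the hexokinase that starts glycolysis, fell from 32.4 and 35.3 to 6.87 and 8.81 (log2 change −1.99, SE 0.22, adjusted p = 0.0371). PFKFB4, which makes an activator of phosphofructokinase, rose from 2.07 and 1.96 to 6.65 and 5.79 (adjusted p = 0.0384). Those were the 2 calls among 33 glycolysis and hypoxia genes, against 3.44% of all tested genes, with a median of 0.46.

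Surface, secreted and matrix genes moved both ways. NRCAM, a neuronal-type adhesion molecule, fell from 75.7 and 75.4 to 10.6 and 11.1 (log2 change −2.69, SE 0.15, limma adjusted p = 0.0142), with both groups within a narrow range. NECTIN1, an adherens junction protein, had 3.06 and 2.69 in control and 0.537 and 0.558 in siRNA 2. CLDN2, a channel-forming claudin, had 0.113 and 0.110 against 27.9 and 15.7. These were the 3 calls among 31 adhesion and EMT genes (median −0.02), against 3.44% of all tested genes. NRCAM alone of the 3 was over 1 in both groups. MICB, a ligand of the natural killer receptor NKG2D, fell from 18.2 and 19.2 to 2.26 and 1.75 (adjusted p = 0.0204). ULBP1, another ligand, had 6.09 and 5.82 in control and 0.610 and 0.340 in siRNA 2. RAET1G, a ligand of the same receptor, rose from 1.92 and 2.03 to 8.17 and 11.2 (adjusted p = 0.0376), so the 12 tested genes of that list did not move one way.

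The matrix enzyme LOXL2 fell from 73.9 and 72.1 to 24.9 and 28.6 (limma adjusted p = 0.0376), among 19 tested genes with a median of −0.02. MMP2, a gelatinase, had 2.24 and 2.38 in control and 0.384 and 0.534 in siRNA 2. ITGA2, a collagen-binding integrin, fell from 15 and 13.9 to 5.44 and 4.53 (adjusted p = 0.0384), while the basement membrane collagens COL4A4 (3.49 and 3.34 against 12.6 and 10.3) and COL4A1 (3.12 and 2.73 against 7.68 and 9.93) rose. These were the 3 calls among 30 collagens, laminins and integrins, against 3.44% of all tested genes. The cytokines CCL20 and LIF and the NF-kB inhibitor TNFAIP3 were called lower among 22 NF-kB genes, against 2.06% of all tested genes. LIF fell from 68.6 and 65.0 to 23.1 and 14.8 (adjusted p = 0.0453). ID2, a BMP-responsive inhibitor of differentiation factors, fell from 58.0 and 59.0 to 11.7 and 17.4 (adjusted p = 0.0384). It was the only call among 22 TGF-beta genes, against 3.44% of all tested genes. CCN1, a secreted YAP target, fell from 78.2 and 68.9 to 34.5 and 27.9 (adjusted p = 0.0498). It was the only call among 17 YAP and TEAD targets, against 3.44% of all tested genes. That list had a median of −0.41, and in 10 of the 17 both siRNA 2 libraries lay below both controls, against 25.9% of all tested genes.

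HMGA2, a chromatin protein of embryonic and cancer cells whose mRNA is a classical let-7 target, fell from 24.5 and 25.0 to 3.23 and 1.60, a log2 change of −2.96 (SE 0.28, limma adjusted p = 0.0316). IGF2BP2, an RNA-binding protein of the same oncofetal list, fell from 4.10 and 4.11 to 1.31 and 1.22 (adjusted p = 0.0384). The 10 tested genes of the list had 0 called higher and 2 lower, against 1.38% and 2.06% of all tested genes. Their median was −0.33. Genes of the RNA interference machinery (12 tested), sensors of foreign RNA (7), interferon response and class I genes (28), replication-dependent histones (17) and autophagy genes (29) had 0 calls, with medians of 0.00, −0.46, 0.01, −0.31 and 0.37. Of all tested genes 3.44% were called. The interferon median turned negative under the 3 other scalings. OAS3, a sensor of double-stranded RNA in both the sensor and the interferon lists, was 8.40 and 8.73 in control and 1.53 and 2.98 in siRNA 2 (adjusted p = 0.0569).

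Genes of large complexes, mitochondrial chaperones and proteases and the lysosome stood high in replicate 2 and nearer control in replicate 1. These values were not rescaled. The column total of replicate 2 was 299936, against 205986 to 209559 in the other compared libraries. The 74 tested nuclear respiratory chain genes had a median change of 0.04 in replicate 1 and 1.87 in replicate 2, the 36 proteasome genes 0.20 and 1.86, and the 78 cytosolic ribosomal protein genes −0.19 and 1.95. The ribosomal proteins had 50 members on opposite sides of the control mean in the 2 libraries. For the 72 mitochondrial ribosome genes the medians were 0.24 and 0.75, for the 18 mitochondrial chaperones and proteases 0.27 and 1.68, and for the 21 TOM and TIM23 import genes 0.16 and 0.87. The 43 lysosomal genes had 0.27 and 1.34. Both siRNA 2 libraries lay above both controls in 13 of the 18 mitochondrial chaperones and proteases, 22 of the 36 proteasome genes, 25 of the 43 lysosomal, 39 of the 72 mitochondrial ribosome, 30 of the 74 respiratory chain, 10 of the 21 import and 10 of the 78 cytosolic ribosomal genes, against 33.7% of all tested genes.

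UQCRB, a complex III subunit, rose from 10.6 and 8.80 to 52.6 and 55.7 (log2 change 2.37, SE 0.17, limma adjusted p = 0.0204), and COX7B of complex IV from 11.2 and 12.3 to 39.5 and 33.1 (adjusted p = 0.0378). TOMM22, which receives precursor proteins at the TOM complex, rose from 6.84 and 6.85 to 33.8 and 25.6 (adjusted p = 0.0371). Its call was lost under each of the other scalings. The lysosomal proteases CTSB and CTSC rose from 11.1 and 9.60 to 54.9 and 89.6 and from 5.01 and 4.64 to 28.3 and 46.0 (adjusted p = 0.0360 for each), and the proton pump subunit ATP6V0D1 from 17.9 and 19.2 to 44.2 and 50.0 (adjusted p = 0.0384). PSMD11, of the proteasome cap, rose from 2.64 and 3.20 to 24.1 and 49.7 (adjusted p = 0.0378). RPL29 was the only call among 78 tested cytosolic ribosomal proteins, against 3.44% of all tested genes. It fell from 501 and 492 to 122 and 73.1 (adjusted p = 0.0378). Among 26 endoplasmic reticulum chaperones, the calcium-binding chaperone CALR rose from 144 and 148 to 340 and 444 (adjusted p = 0.0475), and the translocon protein SEC62 fell from 36.4 and 36.9 to 7.12 and 6.21 (adjusted p = 0.0219).

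**Figure D3:**
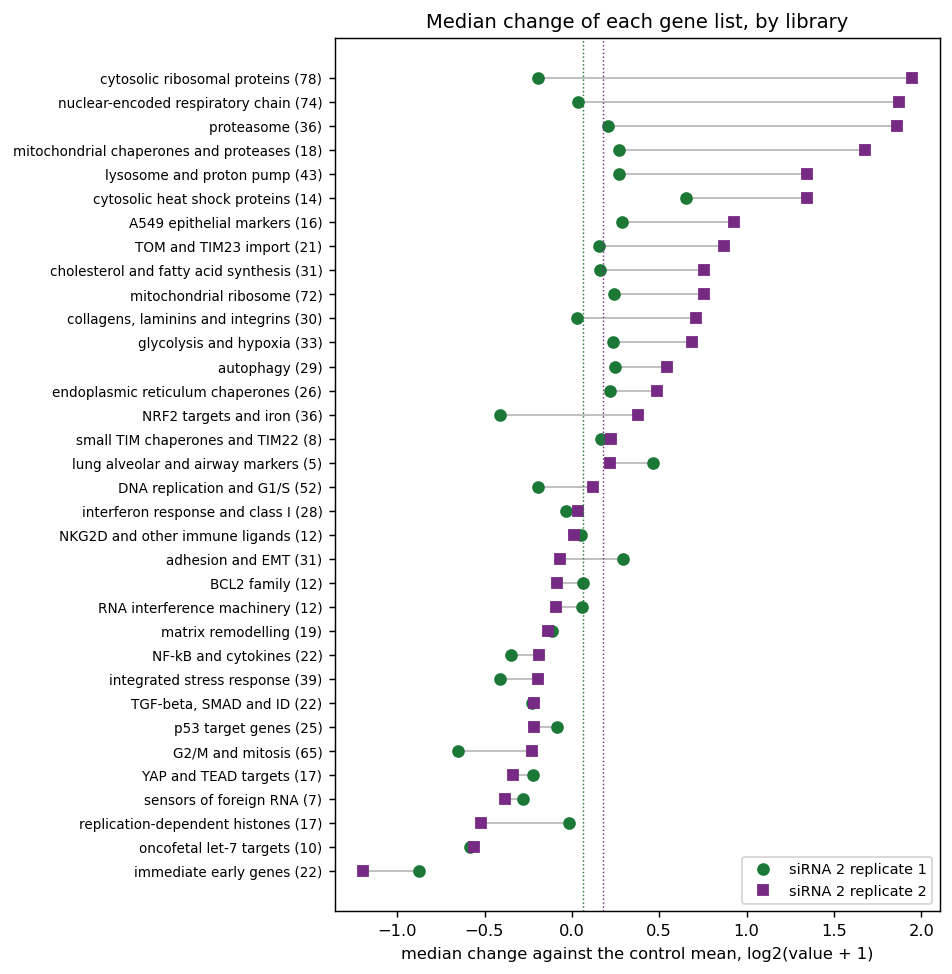
Median log2(value + 1) change of the gene lists with at least 5 tested genes, the MAP kinase outputs left out, against the control mean in siRNA 2 replicate 1 (green circles) and replicate 2 (purple squares), with the number of tested genes in brackets and dotted lines at the medians of all tested genes, 0.07 and 0.18. Immediate early genes are the lowest list plotted in both libraries (−0.87 and −1.20), heat shock genes are high in both (0.65 and 1.34), and ribosomal proteins lie at −0.19 and 1.95.

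Among called genes, the 15 largest rises and 15 largest falls, ranked by the smaller change of the 2 siRNA 2 libraries, held many genes that went from near 0 to a high value. In 9 of the 15 rises both controls were under 1, so these passed the filter through siRNA 2 alone, and CBR1, given above, had the largest. NRIP1, a corepressor of nuclear receptors, had 0.0520 and 0.00673 in control and 22.8 and 13.6 in siRNA 2. CHMP1A, a subunit of the ESCRT-III membrane-cutting machinery, had 0.784 and 0.643 against 24.5 and 21.3. The group also held CCNT1, the cyclin of the transcription elongation factor P-TEFb (0.191 and 0.149 against 13.5 and 8.50), APH1B, a gamma-secretase subunit (0.431 and 0.578 against 13.7 and 12.3), and THAP12 (0.375 and 0.285 against 19.6 and 11.8). ARHGEF10, a guanine nucleotide exchange factor, was listed at 0 in both controls and stood at 10.9 and 11.7.

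Other large rises started from a measurable level. SRSF2 and RNPS1, splicing regulators, rose from 11.9 and 10.8 to 137 and 142 (log2 change 3.51, SE 0.15, limma adjusted p = 0.0115) and from 2.85 and 3.60 to 48.0 and 59.1 (log2 change 3.69, SE 0.21, adjusted p = 0.0142). NET1, also a guanine nucleotide exchange factor, rose from 2.94 and 3.85 to 47.9 and 39.1 (adjusted p = 0.0183). HCCS, which attaches haem to cytochrome c in mitochondria, rose from 1.44 and 1.91 to 20.5 and 24.5 (adjusted p = 0.0183), and TCEAL9 from 2.36 and 3.31 to 68.0 and 84.0 (adjusted p = 0.0142). Among the falls not yet given, WASF2, an activator of branched actin growth, went from 19.2 and 17.4 to 2.65 and 2.25 (log2 change −2.49, SE 0.18, adjusted p = 0.0204). NEIL3, a DNA repair glycosylase, fell from 14.4 and 15.7 to 1.89 and 2.71 (adjusted p = 0.0316), THAP10 from 13.4 and 13.0 to 1.77 and 0.694 (adjusted p = 0.0360), and PLSCR4, a phospholipid scramblase, from 26.1 and 24.9 to 4.94 and 3.77 (adjusted p = 0.0326).

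Several of these genes overlap another row of the table on the same strand, so reads there cannot be assigned to either by strand. ABCF2 was listed at 0 and 0.00198 in control and stood at 17.4 and 24.0 in siRNA 2, while the readthrough ABCF2-H2BK1, which spans it on the same strand, went from 6.53 and 5.91 to 0 in both. Summed over the locus, the values were 7.32 and 6.18 in control and 17.5 and 24.0 in siRNA 2. RBM14-RBM4, the largest fall, went from 54.1 and 35.0 to 0 and 1.18, while RBM4 alone went from 4.73 and 32.0 to 51.9 and 41.5. The locus summed to 72.2 and 92.8 against 59.2 and 47.8. ARHGEF10 overlaps KBTBD11-OT1, which was 7.73 and 8.30 in control and 0 in both siRNA 2 libraries, and OVCA2, called higher at 51.1 and 32.4 against 3.61 and 2.21, overlaps DPH1, at 0.535 and 25.5 against 11.3 and 12.5. FBXW10 and FBXW10B, near-identical copies, stood at most at 0.370 in siRNA 2, and their separate values are uncertain. In all, 3 of the 15 rises and 3 of the 15 falls overlapped another gene on the same strand.

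**Figure D4:**
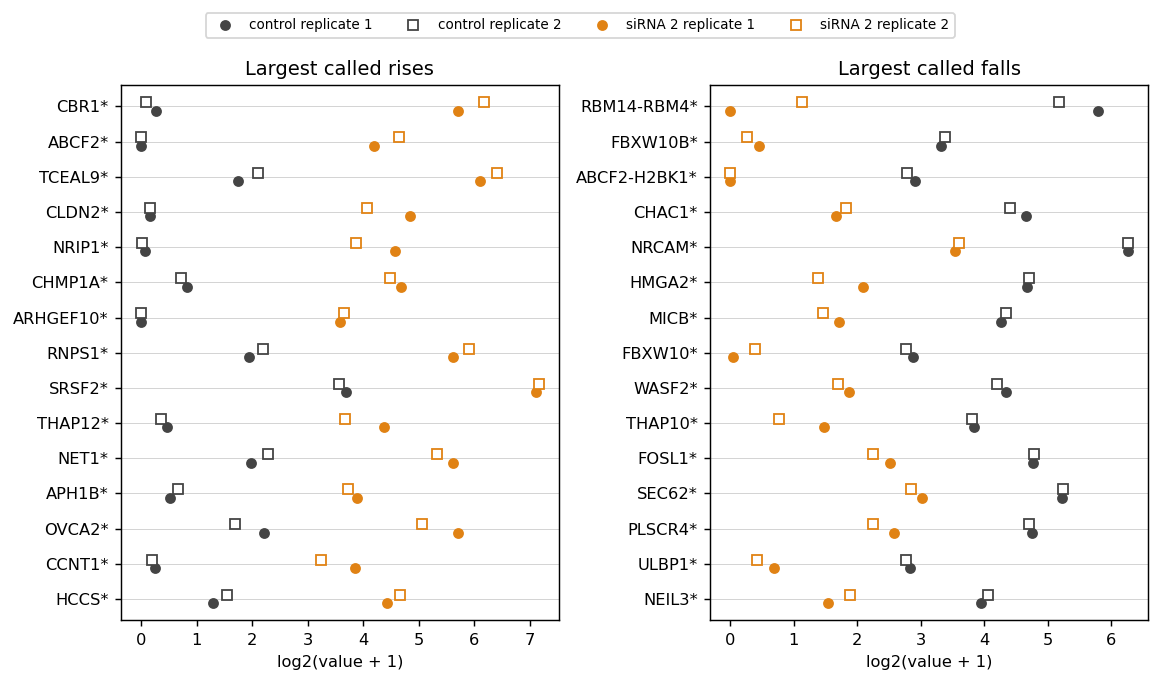
Values of the 15 largest called rises (left) and falls (right) as log2(value + 1) in the control libraries (dark) and siRNA 2 libraries (orange), replicate 1 as filled circles and replicate 2 as open squares; all are called by limma. The groups do not overlap in any of the 30 genes, which follows from how these genes were picked. In 9 of the 15 rises both controls are under a value of 1.

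The gap between the siRNA 2 replicates moved with the annotation of the gene. Genes with 1 annotated transcript (618 tested) had a median change of 0.09 in replicate 1 and −0.47 in replicate 2. Genes with 16 to 99 transcripts (1766) had 0.14 and 0.66. The share at least 2-fold apart between the siRNA 2 replicates was 9.39% in the first class and 30.8% in the last, and between the controls 3.88% and 10.3%. Genes whose longest transcript was 207 to 2147 nt had medians of 0.03 and 0.46, and those of 5910 to 34526 nt 0.08 and −0.01. The part of transcript assignment in the changes given here was not tested.

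**Figure D5:**
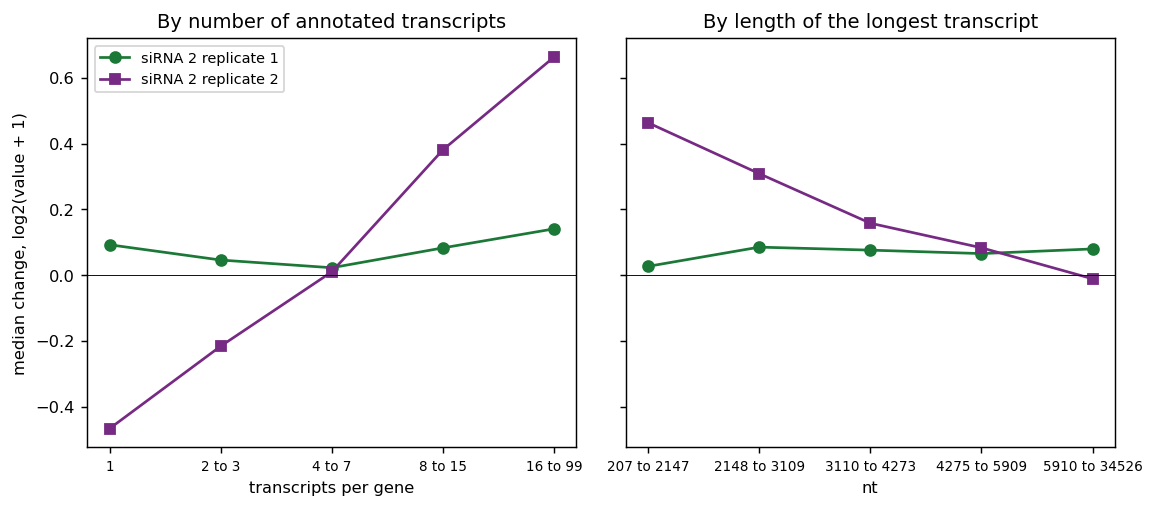
Median log2(value + 1) change against the control mean in siRNA 2 replicate 1 (green circles) and replicate 2 (purple squares), for genes grouped by number of annotated transcripts (left) and by length of the longest transcript in nt (right). Replicate 1 stays between 0.02 and 0.14, and replicate 2 goes from −0.47 to 0.66 with transcript number and from 0.46 to −0.01 with length.

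Genes with 1 transcript in GENCODE 29 made 28 of the calls, 4 higher and 24 lower (4.53% of 618, against 3.44% of all tested genes). ABCF2-H2BK1 and OVCA2, which overlap another gene on the same strand, are among them. In 34 of the 618 each siRNA 2 library was at least 2-fold below both controls, and in 11 at least 2-fold above. Besides EGR1, JUNB, FTL, SCD, SESN2 and ULBP1, the falls included genes named after their values were seen. INHBB, an activin subunit, fell from 53.4 and 50.3 to 15.1 and 8.27 (limma adjusted p = 0.0463), RYBP, a Polycomb partner, from 14.6 and 15.5 to 4.52 and 2.85 (adjusted p = 0.0384), and the clock repressor NR1D1 from 8.05 and 6.73 to 1.82 and 1.63 (adjusted p = 0.0376). GNAI3, an inhibitory G protein subunit chosen likewise, had 0.999 and 0.977 in control and 12.2 and 11 in siRNA 2. FZD8, a Wnt receptor, was listed at 0 in both controls and stood at 3.09 and 2.09.

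Among abundant genes, the widest disagreement between the siRNA 2 replicates was in TXN, thioredoxin, at 9.80 and 10.5 in control, 3.19 in replicate 1 and 290 in replicate 2. RPL13 was 92.0 and 86.4 in control and 3.16 and 261, and PSMA6, a proteasome core subunit, 21 and 9.48 against 1.09 and 103. For TMEM230 and ARPP19 the controls split in the same manner, at 2.07 and 162 and at 0.475 and 116. SETD6, a lysine methyltransferase, split the other way, at 21.6 and 4.25 against 10.3 and 9.44 in control. None of these genes was called (limma adjusted p from 0.632 to 0.997).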

How the data were processed

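RNA was measured in 6 poly(A)-selected, dUTP strand-marked libraries, 2 for each siRNA label, grouped by the siRNA named in each title. The authors deposited 1 table of a signal per gene symbol, fractions that are not counts; neither the tool that made them nor whether they are FPKM or TPM is given by the labels or the file. Per the submitters' processing notes, Trim Galore, STAR, featureCounts and hg38 were used, with no versions or roles. Depth is unknown, so no counting interval or floor is given.

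The values were used as log2(value + 1), which understates changes of low genes, with no further scaling. Genes reaching 1 in 2 or more of the 4 compared libraries were kept (222 of them through siRNA 2 alone, 204 through control alone). limma 3.58.1 in R 4.3.3 was fitted on all 6 libraries with 1 term per group (eBayes with trend and robust options), with Benjamini-Hochberg adjustment over 11209 genes. Gene lists are described by counts and medians, with no test of the list.

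Named genes are TIMM13, the 15 largest called rises and 15 largest called falls by the smaller of the changes in the siRNA 2 libraries, up to 4 genes per list with the smallest p, and up to 6 genes in each direction with the widest opposite changes at a mean of at least 10. All have a mean of at least 1, and clone-style, long non-coding and pseudogene names were left out. Some genes that the rule takes are not reported here. Other genes are said to be chosen after their values were seen. The members and lists were chosen with earlier results of these data known. GENCODE 29 on GRCh38 matched 19813 symbols (99.1%) for coordinates, transcripts and overlaps. Promoters are from RefSeq (GRCh38.p14). In 8 of the 13 promoters found, the bases past the start lie in a GENCODE transcript of the gene.

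Alternatives were pseudocounts of 0.1 and 5, 3 other filters, 3 scalings, only the 4 libraries, library weights, eBayes without its options, a replicate block, only genes with 1 transcript, and each library left out.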

Additional observations from a re-analysis of the deposited data

Results flagged for a closer look

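HMOX1, the haem-degrading enzyme, changed in opposite directions with the 2 siRNA labels, by a test of the difference between them. It stood at 465 and 488 in control, 162 and 207 in siRNA 2, and 1608 and 1514 in the libraries labelled siRNA 1. The siRNA 2 minus siRNA 1 difference was −3.09 on the log2(value + 1) scale (limma adjusted p = 0.0185). Against the same 2 control libraries, which both comparisons share, the log2 changes were −1.38 with siRNA 2 (adjusted p = 0.0465) and 1.71 with siRNA 1 (adjusted p = 0.0429).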

How the results depend on the processing

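limma's count of calls (155 higher, 231 lower) was moved by over 1.5 times by most settings, in the counts that follow as higher and lower. With equal column totals it was 9 and 11, with equal upper quartiles 49 and 67, and with quantile normalization 66 and 111. Those scalings took the median change of all genes from 0.14 to −0.06, −0.05 and −0.03, and the medians of the BCL2, NRF2, interferon, NKG2D and TGF-beta lists, and of endoplasmic reticulum chaperones under quantile normalization, below 0. With library weights the counts were 7 and 4, with a mean of at least 5 they were 90 and 107, and without a filter 150 were lower. Fitting and adjusting over the 618 genes with 1 transcript alone gave 31 and 107. There the estimate of the spread changed as well as the number of tests. Fitting only the 4 libraries called 0 (2101 at unadjusted p under 0.05). The replicate block called 0 (2540 at unadjusted p under 0.05), but the numbers do not pair the samples (correlations of deviations −0.0038 to 0.0518), and no sample pairing comes from the labels. Leaving out each library in turn gave 0 to 2706 higher and 0 to 1940 lower. A group left with 1 library is assumed to vary like the others. With either siRNA 2 library left out, the gap between the siRNA 2 replicates no longer enters the spread. Keeping the calls in those fits therefore does not measure how firm they are. Genes at least 2-fold above both controls in each siRNA 2 library numbered 262 to 1952 on leaving out a library, 412 at a pseudocount of 0.1, 114 at 5 and 11 among genes with 1 transcript. Those 2-fold below numbered 289 to 792, 460, 123 and 34. Of 74 named calls, 58 were lost with equal totals and 67 with library weights. The cause of these moves was not tested. The median of immediate early genes stayed between −1.34 and −0.73 and that of heat shock genes between 0.65 and 1.34 over the settings run. Several settings changed only the test and could not move a list median. These were only the 4 libraries, library weights, eBayes without its options, the replicate block and leaving out a siRNA 1 library. The heat shock limits are the medians of siRNA 2 replicates 1 and 2 taken alone. Among the named genes, a change of sign was seen only in uncalled genes whose siRNA 2 replicates disagreed. SETD6 was −0.037 at a pseudocount of 0.1 and −0.19, −0.18 and −0.15 under the scalings in the order above, and PSMA6 was 0.40 at a pseudocount of 5. On leaving out each library in turn their changes ran from −1.05 to 1.06 and from −2.87 to 2.78, and those of ARPP19 from −3.67 to 2.64, TMEM230 from −3.40 to 2.33, RPL13 from −4.44 to 1.54, PMF1 from −4.03 to 1.30 and TXN from −1.41 to 4.71. Depth is unknown, so what it limits could not be judged.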
